A study of Mus musculus with 20 samples.

Results

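The nuclear genes for the proteins of the mitochondrial ribosome were taken as all symbols that begin with Mrpl or Mrps followed by a number, pseudogene names ending in -ps left out (there were 0). The rule gave 77 of the 27998 genes in each expression matrix, 48 with the prefix Mrpl (large subunit) and 29 with the prefix Mrps (small subunit). They were followed in mouse embryonic stem cells (a 129P2/OlaHsd male line) that were driven by combinations of agonists and inhibitors of developmental signalling pathways and read by single-cell RNA sequencing. Each well was tagged with transfected short RNAs, called barcodelets, and all wells of an experiment were pooled and sequenced as 1 library. Summing unique molecular identifiers (UMIs, 1 per captured RNA molecule) over the cells of a tag gave the populations that are compared here.

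In the germ layer experiment each of 32 populations received, for 24 hours in differentiation medium, the plus or the minus arm of 5 pathways: retinoic acid (RA) or the RA receptor antagonist CD 2665, GSK3 inhibitor XV or the tankyrase inhibitor IWR1 for Wnt, Activin A or the receptor inhibitor A8301 for Tgfb, Bmp4 or Dorsomorphin for Bmp, and Fgf2 or the MEK inhibitor UO126 for Fgf. All cells had been kept with LIF, GSK3 inhibitor XV and UO126, both inhibitors being withdrawn 48 hours before the cells were seeded for differentiation. Minus means an inhibitor and not an untreated well, and Dorsomorphin, an inhibitor of Bmp type I receptors, is also known as an inhibitor of the energy sensor AMPK. The mesendoderm experiment crossed 7 pathways (RA, Tgfb, Notch, Shh, Wnt, Bmp and Fgf) over wells pre-treated for 24 hours with a mix of Fgf2, Activin A, GSK3 inhibitor XV and the antagonists Dorsomorphin and CD 2665. The mixed experiment crossed 5 pathways over wells with that mesendoderm start and wells with an undirected start, and had 8 control wells per start that were given no pathway combination. The design tables of the mesendoderm and mixed experiments give plus and minus without compound names.

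Mitochondrial ribosomes translate the few messenger RNAs of the mitochondrial genome, all of which encode core subunits of the respiratory chain and ATP synthase. Their RNAs come from mitochondrial DNA, but every one of their proteins is encoded in the nucleus, made on cytosolic ribosomes and imported. Pluripotent stem cells rely strongly on glycolysis and remodel their mitochondria as they differentiate.

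The matrices held 8421 germ layer, 12781 mesendoderm and 5944 mixed cells, of which 4350, 2899 and 4869 carried a tag assignment that passed the deposited filter. Populations of at least 5 such cells were used, which left 32, 300 and 142. The germ layer populations had 70 to 230 cells and 991630 to 3816595 UMIs, the mesendoderm ones 27701 to 332644 UMIs and the mixed ones 101140 to 2119355 UMIs. Cell barcodes present in both of 2 libraries numbered 151 (germ layer and mesendoderm), 64 (germ layer and mixed) and 111 (mesendoderm and mixed). A germ layer condition is 1 population, so the spread behind each germ layer p-value is the residual of the additive model over the 32 populations. All p-values measure the spread between populations of 1 pooled library and no label says that the populations came from separate cultures. A sum over cells cannot tell fewer cells of a type from less RNA per cell. The cells were labelled embryonic stem cells: pluripotency markers (8 genes, among them Dppa5a, Pou5f1, Sox2 and Nanog) were present in each of the germ layer populations, at 308.4 to 1979 UMIs per 1000000 in all. Dppa5a averaged 355.4 scaled UMIs per 1000000 there, against 251.9 for Pou5f1, 77.64 for Sox2 and 44.86 for Nanog. In the mixed experiment Dppa5a averaged 1048, against 391.7 for Pou5f1.

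Promoters are shown for 4 of the genes, 3 that were lower and 1 that was higher under Bmp stimulation, the comparison that moved most members; RefSeq windows on build GRCm38.p6 were matched for 68 of the 77 genes. Each line gives 200 bases upstream of the start site, 5′ to 3′ on the strand of the gene, and capitals mark a match to the NRF1 motif GCGCANGCG or the ETS (GABPA) motif CCGGAAG on either strand. NRF1 and GABPA are transcription factors known for driving nuclear genes of mitochondria.
Mrpl12, chr11:120484437-120484636, plus strand: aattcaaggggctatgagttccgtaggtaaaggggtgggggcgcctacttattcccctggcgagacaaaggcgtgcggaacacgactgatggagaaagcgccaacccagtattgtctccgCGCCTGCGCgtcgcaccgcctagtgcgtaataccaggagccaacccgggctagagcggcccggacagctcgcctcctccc
Mrps22, chr9:98601680-98601879, minus strand: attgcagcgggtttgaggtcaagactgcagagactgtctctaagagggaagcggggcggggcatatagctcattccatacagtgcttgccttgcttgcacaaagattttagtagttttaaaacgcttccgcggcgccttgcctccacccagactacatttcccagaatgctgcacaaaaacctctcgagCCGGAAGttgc
Mrpl28, chr17:26123303-26123502, plus strand: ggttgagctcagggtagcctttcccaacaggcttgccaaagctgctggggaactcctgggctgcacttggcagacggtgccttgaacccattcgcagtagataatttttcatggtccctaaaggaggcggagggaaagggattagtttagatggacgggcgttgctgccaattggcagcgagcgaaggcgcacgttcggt
Mrpl57, chr14:57826039-57826238, plus strand: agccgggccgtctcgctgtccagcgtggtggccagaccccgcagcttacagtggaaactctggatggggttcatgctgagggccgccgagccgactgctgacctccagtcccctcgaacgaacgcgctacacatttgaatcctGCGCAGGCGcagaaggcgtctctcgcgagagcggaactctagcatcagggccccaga

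Over the full windows of 300 bases (250 before the start and 50 after it), 16 of the 68 genes (23.5%) held the NRF1 motif, against 7.03% of all 27025 genes with a window. The ETS motif was present in 25 (36.8%), against 9.93% of all genes, and the YY1 motif AAGATGGCG in 8 (11.8%), against 1.64%. Any of these 3 motifs stood in a window of 60.3% of the family's genes and of 16.5% of all genes. Among the 43 members with a window that fell with Bmp plus in the germ layer experiment 53.5% held any of them, against 72% of the 25 other members. Cytosolic ribosomal protein genes (58.3% with any motif) and nuclear respiratory chain genes (53%) had shares in the same range. The searches are descriptions of letters and not of bound sites.

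The family made up 0.9061% to 1.127% of all UMIs in the germ layer populations, and a median cell held 156 member UMIs from 59 of the 77 genes. Levels below are UMIs per 1000000 (CPM), scaled with TMM factors over the genes tested in each experiment, and since a UMI counts molecules they were not divided by length. Mrpl42, a mitochondria-specific protein of the large subunit, averaged 442 ± 54.1 CPM (SD over 32 germ layer populations), Mrpl18, which lies in the central protuberance, 409 ± 62.7 CPM, and Mrpl12, the stalk protein, 287 ± 42.5 CPM. At the low end Mrps27, a small-subunit protein with RNA-binding repeats, averaged 16.3 ± 3.06 CPM and Mrps31 29.8 ± 6.37 CPM. Mrpl53 averaged 0.378 ± 0.343 CPM, with 27 UMIs over all assigned germ layer cells, and was too low to test in any experiment. The 3 Mrps18 paralogues, which occupy different places in the ribosome (Mrps18a in the large subunit), had close levels of 124 ± 9.17 (Mrps18a), 126 ± 19.8 (Mrps18b) and 135 ± 11.8 CPM (Mrps18c). The filter on low counts kept 76 members in the germ layer and mixed experiments and 56 in the mesendoderm experiment.

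Most of the family was lower under Bmp stimulation. In the germ layer experiment 51 of 76 members fell and 3 rose with Bmp4 relative to Dorsomorphin, while 21.5% of all 10614 genes tested fell and 21.6% rose (edgeR quasi-likelihood test, adjusted p under 0.05 over all genes). The median member changed by -0.157 on the log2 scale, against 0.004 for all genes tested, and 13 of 76 members had a change above 0. DESeq2 gave the same balance, 52 down and 3 up.

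CPM is a share of the UMIs counted and does not give RNA molecules per cell. Mean UMIs per cell averaged 17330 in Bmp plus and 15850 in Bmp minus populations, and a change in member UMIs per cell was not tested. The summed level of the family shows the size of the shift in that share. It ran from 9055 through a median of 9678 to 10540 CPM in the 16 Bmp plus populations, and from 9914 through 10470 to 11050 CPM in the 16 Bmp minus populations. The ranges overlap, but in each of the 16 pairs of populations that differ in Bmp alone the plus member was lower, by 4.17% to 14.54% with a median of 7.97%. Bmp minus populations took 15 of the 16 highest places. The highest sum, 11050 CPM, was in the population with Tgfb and Fgf plus and the other 3 pathways minus, and the lowest, 9055 CPM, in the one with RA and Bmp plus and the others minus. Pairs that differ in another pathway were mixed in direction, the plus population being lower in 12 of 16 for RA, 7 of 16 for Wnt, 4 of 16 for Tgfb and 2 of 16 for Fgf.

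**Figure D1:**
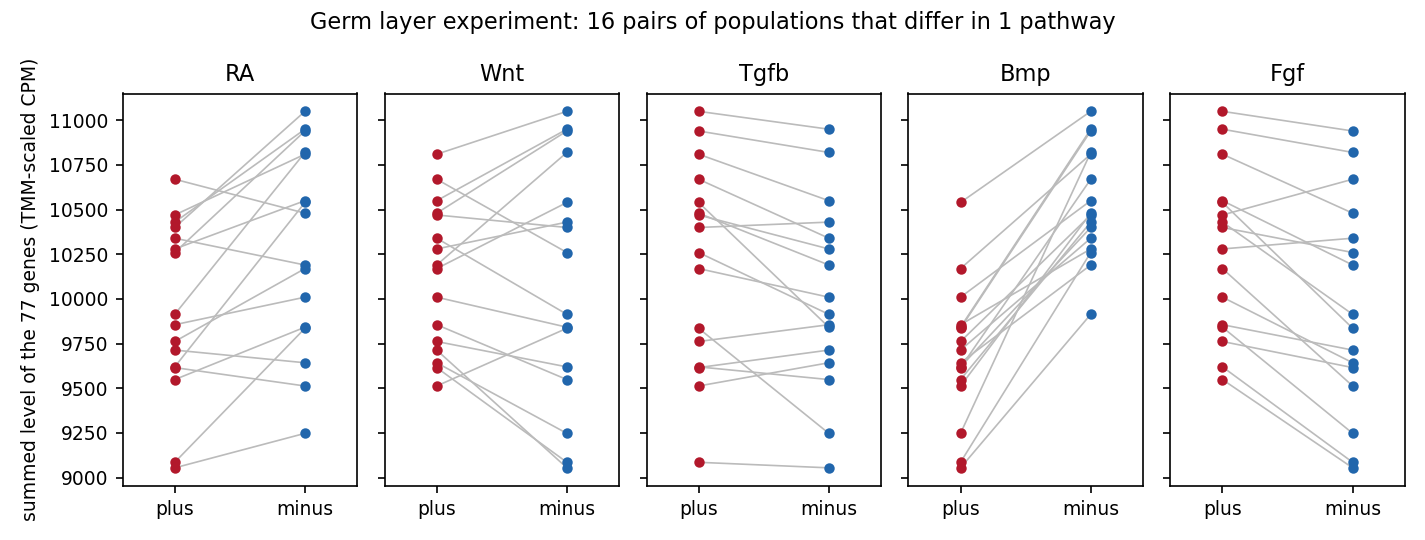
Summed level of the 77 genes (TMM-scaled CPM, axis not from 0) in the 32 germ layer populations, drawn once for each pathway with the plus arm left of the minus arm. Each dot is 1 population and each line joins 2 populations that differ in that pathway alone; all 16 lines for Bmp run lower on the plus side, against 12 of 16 for RA and 2 of 16 for Fgf.

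In 2 large-subunit genes every Bmp plus population lay below every minus population. Of all genes tested 0.122% did so, and 0.245% did so in reverse, with 0 members among them. Mrpl15, whose bacterial counterpart lies in the core of the large subunit (chromosome 1, 4773206 to 4785739, build GRCm38, minus strand), had 125.3, 146.5 and 164.1 CPM (lowest, median, highest) in Bmp plus and 169.4, 191.5 and 204.2 CPM in Bmp minus populations. Its change was -0.37 ± 0.03 on the log2 scale (SE, adjusted p = 8.83e-11). Mrpl28 (chromosome 17, 26123500 to 26126613, plus strand), singled out after its values were seen, had 166.4, 188.6 and 214.5 CPM in Bmp plus and 215.5, 231.1 and 247.4 CPM in Bmp minus populations, a change of -0.28 ± 0.03 (adjusted p = 3.78e-10). No plus population reached the lowest minus population for either gene, and no other member showed such a gap in this or any other germ layer comparison.

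Many of the largest falls were in less abundant members, though Mrpl15 (mean 166.3 CPM) and Mrpl12 (mean 286.8 CPM) were among the largest falls too. Mrpl16, which in bacteria lies near the peptidyl transferase centre, had 32.74, 46.71 and 60.32 CPM in Bmp plus and 47.65, 60.06 and 71.92 CPM in Bmp minus populations, a change of -0.40 ± 0.06 (adjusted p = 5.07e-07). Mrpl47, a protein near the exit of the nascent chain, had 29.07, 37.25 and 41.02 CPM in Bmp plus and 36.82, 47.8 and 62.51 CPM in Bmp minus populations (change -0.40 ± 0.06, adjusted p = 1.38e-06). The arms overlapped for both genes: the Bmp plus median of Mrpl16 lay below every minus population, and the Bmp minus median of Mrpl47 lay above every plus population. Mrpl12, whose promoter with an NRF1 match is printed above, had 207.4, 255.9 and 328.2 CPM in Bmp plus and 268.5, 314 and 351 CPM in Bmp minus populations, a change of -0.31 ± 0.04 (adjusted p = 3.88e-08). Mrps30, named for the small subunit but placed in the large one in present structures, had 57.63, 67.81 and 78.39 CPM in Bmp plus and 70.23, 85.32 and 100.6 CPM in Bmp minus populations (change -0.34 ± 0.05, adjusted p = 2.84e-07). Among small-subunit genes Mrps31 changed by -0.40 ± 0.07 (adjusted p = 2.35e-05), Mrps27 by -0.35 ± 0.08 (adjusted p = 0.000546) and Mrps22, with the ETS match shown above, by -0.35 ± 0.07 (adjusted p = 5.69e-05).

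The fall was shared by both subunits. With Mrps18a and Mrps30 counted where structures place them and Mrps36, a subunit of the alpha-ketoglutarate dehydrogenase complex in present structures, left out, 33 of 49 large-subunit genes fell and 3 rose (median -0.155), and 18 of 26 small-subunit genes fell and 0 rose (median -0.16). Split into 4 groups by mean level, 16, 16, 9 and 10 of 19 members each fell, running from the lowest to the highest levels. In pairs of populations that differ in Bmp alone, 13 members were lower in the plus population in 16 of 16 pairs, as were 3.51% of all genes tested: Mrpl12, Mrpl13, Mrpl15, Mrpl17, Mrpl28, Mrpl42, Mrpl47, Mrpl50, Mrps17, Mrps22, Mrps23, Mrps25 and Mrps30. The most abundant member, Mrpl42, was among them, with 358.2, 401.4 and 477.4 CPM in Bmp plus and 415, 464 and 573.1 CPM in Bmp minus populations (change -0.19 ± 0.03, adjusted p = 5.26e-06).

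**Figure D2:**
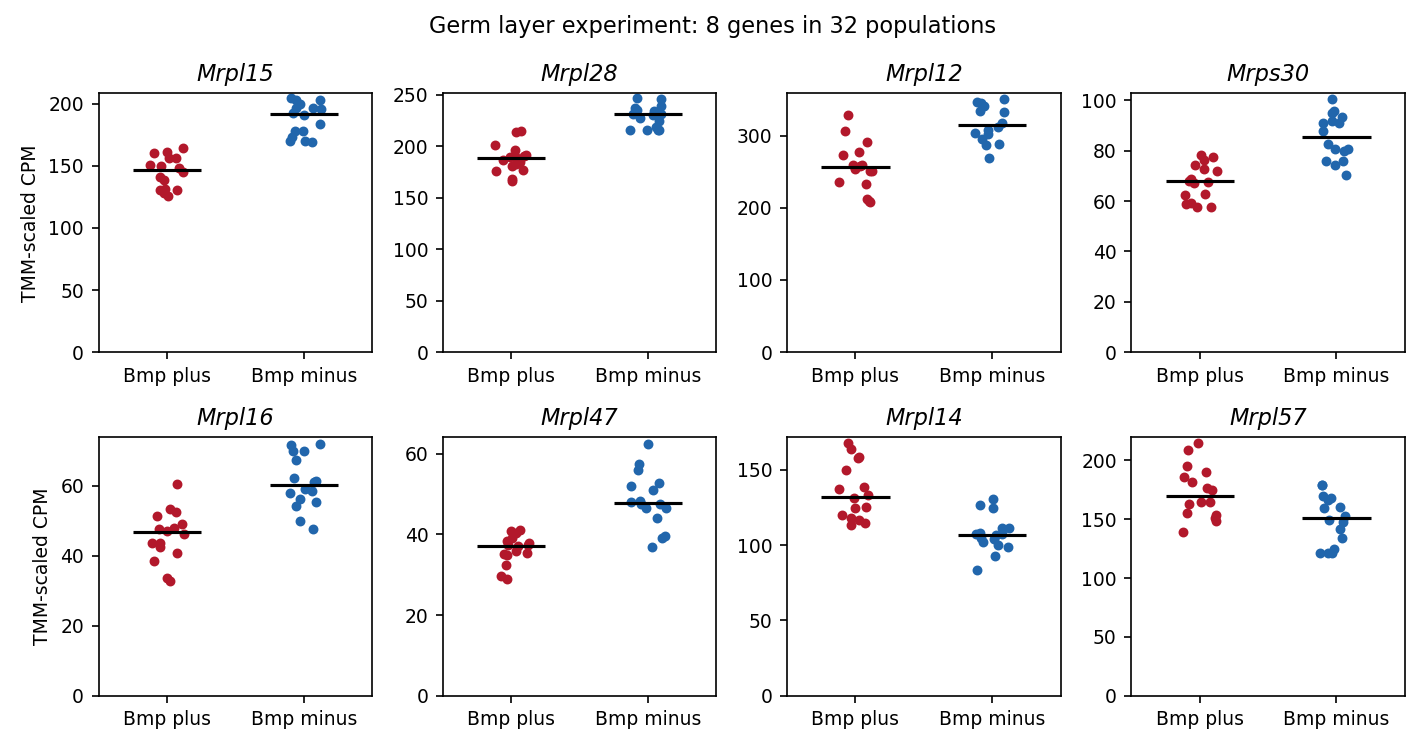
Levels of 8 genes (TMM-scaled CPM, axes from 0) in the 16 Bmp plus and 16 Bmp minus germ layer populations; dots are populations and bars medians. Mrpl15 and Mrpl28 do not overlap between the arms, Mrpl12, Mrps30, Mrpl16 and Mrpl47 are lower in plus with some overlap, and Mrpl14 and Mrpl57 are higher in plus.

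3 members went the other way. Mrpl14, at the face where the subunits meet, had 113.6, 132.2 and 167.6 CPM in Bmp plus and 83.61, 106.9 and 130.7 CPM in Bmp minus populations, a change of 0.33 ± 0.05 (adjusted p = 1.46e-06). Mrpl57, whose promoter also carries an NRF1 match, had 139.6, 170.1 and 215.2 CPM in Bmp plus and 121, 151.2 and 179 CPM in Bmp minus populations (change 0.21 ± 0.04, adjusted p = 3.53e-05). Both were higher in the plus population in 16 of 16 pairs, as were 3.42% of all genes tested. Mrpl54 changed by 0.09 ± 0.03 (adjusted p = 0.0204). Exons of Mrpl14 overlap those of Tmem63b on the other strand, and no source used here says if strand was used in counting. Such overlaps on the other strand were present for 27 of the 77 members, among them Mrpl12, Mrpl47, Mrps27 and Mrps30, which fell. Of the paralogues, Mrps18b fell (-0.20 ± 0.05, adjusted p = 0.00344), while Mrps18a (-0.07 ± 0.04, adjusted p = 0.121) and Mrps18c (-0.08 ± 0.04, adjusted p = 0.123) did not pass.

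Other mitochondrial gene groups were read beside the family in the same comparison. Import and chaperone genes fell in 13 of 18 and rose in 0 (median -0.168), led by Tomm40, the channel of the outer membrane (-0.39 ± 0.04), and Hspd1, the matrix chaperonin (-0.38 ± 0.04). Mitochondrial DNA expression and biogenesis factors fell in 9 of 16 and rose in 1 (median -0.22); Ssbp1, which coats single-stranded mitochondrial DNA, changed by -0.33 ± 0.04, the transcription factor gene Mycn by -0.74 ± 0.11 and Polg, the mitochondrial DNA polymerase, by 0.85 ± 0.11. Nuclear respiratory chain genes fell in 46 of 78 and rose in 4, with a smaller median of -0.0904 (Ndufs4 -0.33 ± 0.04, Ndufc2 -0.30 ± 0.03). Assembly factors of the mitochondrial ribosome fell in 9 of 24 (C1qbp -0.29 ± 0.04), translation factors in 3 of 15, mitochondrial tRNA synthetases in 2 of 17, with 0 rising in each, and mitoribosomal proteins under other symbols in 4 of 6 (Ptcd3 -0.28 ± 0.06). Of all genes tested 21.5% fell, and the counts for translation factors and tRNA synthetases were near or below that share.

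The messenger RNAs that mitochondrial ribosomes read come from mitochondrial DNA. Of 13 such RNAs 6 rose and 1 fell (mt-Co1 0.16 ± 0.02, mt-Nd4 0.13 ± 0.02), and of 79 cytosolic ribosomal protein genes 22 rose and 13 fell (median 0.00810). Markers of cell identity moved with Bmp as well. The 4 surface ectoderm markers (Krt8, Krt18, Tfap2a, Gata3) all rose and summed to 1046, 1567 and 2109 CPM without TMM factors in Bmp plus and 300, 513.1 and 715.6 in Bmp minus populations. Of 7 pluripotency markers tested, 7 fell, and the list summed to 308.4, 758.8 and 1590 in Bmp plus and 561.1, 1172 and 1979 in Bmp minus populations. Mean UMIs per cell were 15100, 17300 and 19640 in Bmp plus and 13710, 15790 and 17990 in Bmp minus populations. With that mean as a covariate 40 members fell and 2 rose. The part of cell identity in the fall of the family was not tested.

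**Figure D3:**
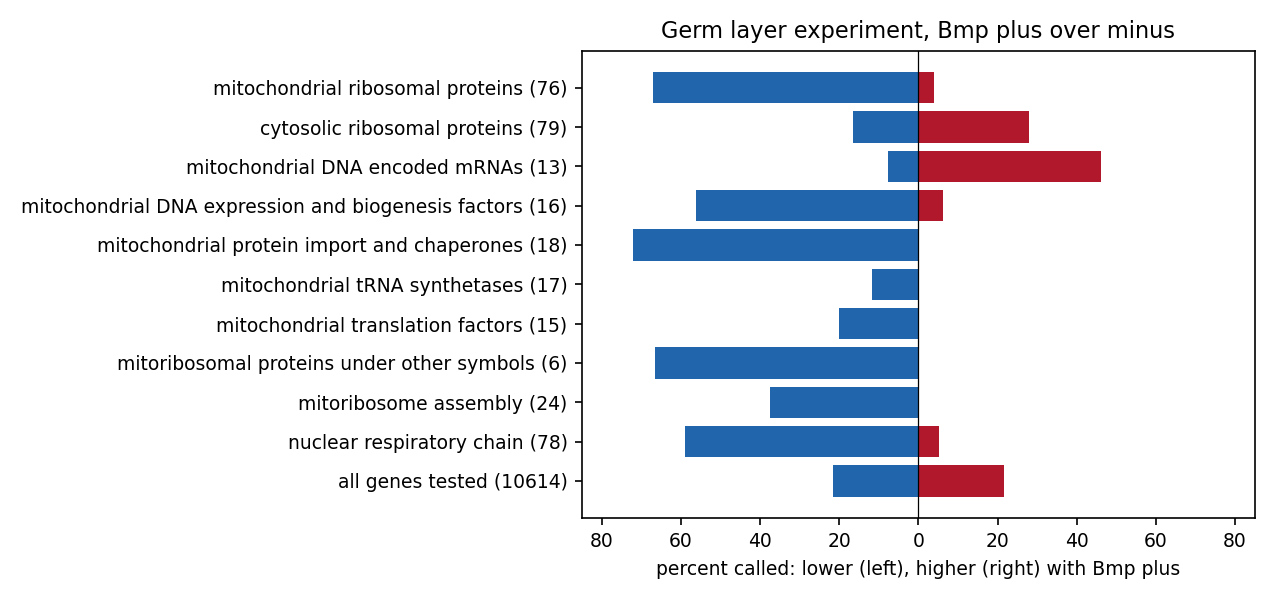
Percent of the genes tested in each list (number in brackets) with adjusted p under 0.05 in the germ layer Bmp comparison, those lower with Bmp plus to the left and those higher to the right. The mitochondrial ribosomal proteins (51 of 76 lower) and import genes (13 of 18 lower) lean left, and the messenger RNAs of mitochondrial DNA (6 of 13 higher) lean right.

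With RA more members fell than rose. In the germ layer experiment 15 of 76 members fell and 4 rose with RA relative to CD 2665, beside 13.6% and 14.1% of all genes, and the median change was -0.0274. Mrpl57 had 121, 148.1 and 165.1 CPM in RA plus and 149.7, 177.6 and 215.2 CPM in RA minus populations, a change of -0.31 ± 0.04 (adjusted p = 1.43e-07), the reverse of its direction with Bmp. Mrpl18 (-0.22 ± 0.04), Mrps18b (-0.22 ± 0.05), Mrpl42 (-0.19 ± 0.03), Mrps34 (-0.18 ± 0.05) and Mrpl20 (-0.17 ± 0.04) fell too, and Mrps6 (0.18 ± 0.06), Mrpl41 (0.16 ± 0.05), Mrpl23 (0.15 ± 0.04) and Mrps33 (0.14 ± 0.04) rose. The groups overlapped for every member. Scaling by the UMI total in place of TMM factors gave 13 down and 6 up. With the mean UMIs per cell of each population as a covariate 6 members fell and 4 rose; that mean was 13710, 15640 and 18030 in RA plus and 14170, 17300 and 19640 in RA minus populations. Markers moved with RA too: pluripotency markers summed to a median of 757.8 CPM without TMM factors in RA plus and 1161 in RA minus populations, primitive streak and mesendoderm markers to 47.41 in RA plus and 150.3 in RA minus, and neural ectoderm markers to 62.57 in RA plus and 47.36 in RA minus. Their part in the changes of the members was not tested.

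With GSK3 inhibitor XV relative to IWR1, 13 of 76 members rose and 6 fell in the germ layer experiment, near the 12.1% and 11.9% of all genes, so the values below describe single members. Mrpl50 had 58.54, 87.47 and 109.3 CPM in Wnt plus and 53.38, 73.67 and 97.77 CPM in Wnt minus populations (change 0.26 ± 0.05, adjusted p = 0.00027), and Mrps9, Mrpl4, Mrpl12 and Mrps30 rose by 0.17 to 0.21. Mrpl51 had 181.9, 205.8 and 222.3 CPM in Wnt plus and 194.1, 246.9 and 288.7 CPM in Wnt minus populations, a change of -0.24 ± 0.03 (adjusted p = 1.58e-06). Mrpl18 had 325.9, 381.6 and 447.7 CPM in Wnt plus and 329.1, 455.7 and 566.8 CPM in Wnt minus populations (change -0.23 ± 0.04, adjusted p = 6.73e-05). The balance depends on scaling: with the UMI total in place of TMM factors 4 members rose and 16 fell. Cytosolic ribosomal protein genes, of which 70 of 79 rose and 0 fell with Wnt plus, took 24.76%, 26.08% and 28.12% of UMIs in Wnt plus and 21.89%, 23.91% and 25.27% in Wnt minus populations, and their part in that dependence was not tested. Pluripotency markers summed to a median of 824.8 CPM without TMM factors in Wnt plus and 1124 in Wnt minus populations. Primitive streak and mesendoderm markers summed to 86.04 in Wnt plus and 64.38 in Wnt minus, and neural ectoderm markers to 49 and 68.73. The part of these markers in the Wnt changes was not tested. Exons of Mrpl18 overlap Tcp1 on the other strand, and those of Mrpl51 a microRNA gene on the same strand.

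For Tgfb and Fgf few members were called, and most of these were higher in plus. With Activin A relative to A8301 5 of 76 members rose and 1 fell, near the 4.07% and 2.95% of all genes. The Tgfb values therefore describe single members. Mrpl34 had 169.3, 230.6 and 276 CPM in Tgfb plus and 172.9, 186.8 and 242.5 CPM in Tgfb minus populations (change 0.20 ± 0.05, adjusted p = 0.00579), and Mrps34, Mrps24, Mrpl15 and Mrpl52 rose by 0.11 to 0.19. Mrpl14 fell by 0.23 on the log2 scale (SE 0.05, adjusted p = 0.00183). With Fgf2 relative to UO126 10 members rose and 1 fell, beside 4.58% and 3.35% of all genes. Mrps6 had 37.63, 56.4 and 71.7 CPM in Fgf plus and 32.76, 47.62 and 58.06 CPM in Fgf minus populations (change 0.28 ± 0.06, adjusted p = 0.00394), though its exons overlap Slc5a3 on the same strand. Mrpl16 (0.20 ± 0.06) and Mrps10 (0.19 ± 0.05) followed, Mrpl23 fell (-0.17 ± 0.04), and groups overlapped throughout. The Fgf count fell to 6 with mean UMIs per cell as a covariate and was 17 with pairwise products in the model. Pluripotency markers summed to a median of 1172 CPM without TMM factors in Tgfb plus and 600.8 in Tgfb minus populations, and to 908 in Fgf plus and 849.1 in Fgf minus. Primitive streak and mesendoderm markers summed to 150.3 in Tgfb plus and 54.42 in Tgfb minus, and to 78.65 in Fgf plus and 66.72 in Fgf minus. The part of these markers was not tested. Over the 5 pathways 10 of the 76 members tested passed in no comparison, 33 in 1, 23 in 2 and 10 in 3 (13.2%, 43.4%, 30.3% and 13.2%), while of all genes tested 34.5% passed in none, 34.2% in 1, 20.7% in 2 and 8.35% in 3.

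Few members were called for a departure of pathway pairs from adding up, and a lack of calls does not show additivity. In the model with all pairwise products, 4 members had a positive RA by Wnt term (1.83% of all 11410 genes positive, 1.8% negative): Mrps18b (0.37 ± 0.08, adjusted p = 0.00384), Mrpl18 (0.21 ± 0.05, adjusted p = 0.0166), Mrps34 (0.29 ± 0.07, adjusted p = 0.019) and Mrpl21 (0.24 ± 0.07, adjusted p = 0.0398). 3 had a positive Wnt by Bmp term (2.01% positive, 1.87% negative): Mrpl32 (0.38 ± 0.08, adjusted p = 0.00383), Mrpl18 (0.24 ± 0.05, adjusted p = 0.00483) and Mrpl20 (0.20 ± 0.06, adjusted p = 0.0456). An unadjusted p under 0.05 (edgeR) was reached by 18 members for RA by Wnt and by 9 for Wnt by Bmp. The RA by Wnt term was above 0 in 55 of 76 members (median 0.0485, against -0.00974 for all genes). The Wnt by Bmp term was above 0 in 46 of 76 (median 0.0321, against 0.00336). In the other 8 pairs edgeR called 0 members, 0 to 10 passed an unadjusted p under 0.05, while DESeq2 called 0. All-gene shares called positive and negative in those pairs were 0.167% and 0.00876% for RA by Tgfb, 1.61% and 1.4% for RA by Bmp, 0.289% and 0.123% for RA by Fgf, 1.64% and 1.38% for Tgfb by Bmp, 0% and 0.0175% for Tgfb by Fgf, 0.0175% and 0.0526% for Bmp by Fgf, and 0% both ways for Wnt by Tgfb and Wnt by Fgf.

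In the mesendoderm experiment at most 16 of 56 members were called for a pathway, those for Wnt. Its populations were small, with a median of 8 cells in both arms of RA, Wnt and Bmp, and single values reached 0. In none of its 7 pathways was the share of members that rose, or that fell, above the share of all genes. RA raised 6 and lowered 2 of 56 members (11.6% and 10.3% of all 2328 genes rose and fell), with Mrpl36 (0.17 ± 0.05, adjusted p = 0.00713) and Mrpl34 (0.17 ± 0.04, adjusted p = 0.00199) up and Mrpl57 down (-0.19 ± 0.05, adjusted p = 0.000642). The count of 8 became 1 with at least 10 cells per population, and 4 without the filter on low counts or with pairwise products. Wnt raised 9 and lowered 7 (19.9% and 19.6% of all genes), 16 calls that became 6 with at least 10 cells. Mrpl12 had 67.26, 263.4 and 419.4 CPM in Wnt plus and 59.22, 219.5 and 466.2 CPM in Wnt minus populations (change 0.23 ± 0.04, adjusted p = 3.32e-07), and Mrpl51 0, 156.1 and 282.4 CPM in Wnt plus and 48.8, 184.8 and 323.1 CPM in Wnt minus populations (change -0.27 ± 0.05, adjusted p = 3.94e-07). The ranges cover each other and the shift is in the medians.

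With Bmp 5 members of the mesendoderm experiment fell and 2 rose (15.9% and 13.4% of all genes), and scaling by the UMI total gave 4 and 3, while at least 10 cells gave 2 and 1. Mrpl42 had 118.8, 281.7 and 479.4 CPM in Bmp plus and 86.71, 347.1 and 642.1 CPM in Bmp minus populations, a change of -0.26 ± 0.04 (adjusted p = 2.07e-09). Mrps24, Mrpl34, Mrpl52 and Mrps33 fell by 0.10 to 0.15 and Mrps12 (0.14 ± 0.06) and Mrpl18 (0.10 ± 0.04) rose. All wells of this experiment had been pre-treated with Dorsomorphin. Tgfb lowered 2 members (4.6% of all genes fell, 5.5% rose), Mrpl18 (-0.13 ± 0.04, adjusted p = 0.0277) and Mrpl54 (-0.12 ± 0.04, adjusted p = 0.0267), and Fgf lowered Mrps14 alone (-0.19 ± 0.04, adjusted p = 1.02e-05; 5.5% of all genes fell, 3.78% rose). For Notch edgeR called 0 members with 1 at an unadjusted p under 0.05 (0.172% of genes rose, 0.988% fell), and for Shh 0 with 1 (0.043% rose, 0% fell); DESeq2 called 0 for both.

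The mixed experiment set the starts side by side in 1 library. At the mesendoderm start RA lowered 11 of 76 members and raised 6 (15.6% and 14.4% of all 8791 genes), with a median change of -0.038, a split that became 20 down and 0 up when the UMI total replaced TMM scaling and 6 down and 2 up without the filter on low counts. At the undirected start 28 of 76 fell and 2 rose (17.5% and 16.9%), with a median of -0.138. The summed level was lower in RA plus in 14 of 16 mesendoderm combinations (median -2.15%) and in 15 of 15 undirected combinations (median -7.17%). Pluripotency markers summed to medians of 1719 CPM without TMM factors in RA plus and 2140 in RA minus wells of the mesendoderm start, and of 2084 in RA plus and 2550 in RA minus wells of the undirected start. Their part in the change of the family was not tested.

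Mrpl15 had the larger of the 2 called differences between starts in the RA change. At the mesendoderm start it had 104.9, 156.1 and 196.2 CPM (lowest, median, highest) in RA plus and 109.5, 164.9 and 229.5 CPM in RA minus wells, a change of -0.13 ± 0.05 (adjusted p = 0.0428). At the undirected start it had 80.94, 136.2 and 232 CPM in RA plus and 103, 187.7 and 279.5 CPM in RA minus wells, a change of -0.46 ± 0.06 (adjusted p = 5.58e-11). The arms overlapped at both starts. The mesendoderm change less the undirected one was 0.33 ± 0.08 (adjusted p = 0.00273). Mrpl34 was the other member whose RA change differed (0.24 ± 0.07, adjusted p = 0.0205). It had 126.4, 201.9 and 250.7 CPM in RA plus and 151.3, 202 and 260.9 CPM in RA minus wells of the mesendoderm start, and 124.1, 206.6 and 278.3 CPM in RA plus and 167.1, 231.3 and 325.2 CPM in RA minus wells of the undirected start. Its medians were level at the mesendoderm start and lower in RA plus at the undirected start. Over all genes tested 2.45% had a higher and 3.23% a lower RA change at the mesendoderm start.

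Some other members were called the same way with RA at both starts. Mrpl18 fell (-0.21 ± 0.05 mesendoderm, adjusted p = 0.000211, and -0.38 ± 0.05 undirected, adjusted p = 1.09e-09), as did Mrpl12, Mrpl20 and Mrpl42. Mrps36, since assigned to the alpha-ketoglutarate dehydrogenase complex and no ribosomal protein in present structures, rose at both (0.11 ± 0.04 mesendoderm, 0.22 ± 0.05 undirected). Mrps6, which rose with RA in the germ layer experiment, had the largest called fall at the mesendoderm start, with 5.237, 33.67 and 63.75 CPM in RA plus and 23.91, 43.63 and 95.37 CPM in RA minus wells (-0.37 ± 0.09, adjusted p = 0.000525). It fell at the undirected start as well (-0.31 ± 0.12, adjusted p = 0.0279). Its exons overlap those of Slc5a3 on the same strand. Import and chaperone genes fell with RA at the undirected start in 15 of 17 (median -0.276), while cytosolic ribosomal protein genes rose in 46 of 78 and pluripotency markers fell in 7 of 8.

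With Fgf more members rose than fell at either start, but at the mesendoderm start the share that rose was near that of all genes. At the mesendoderm start 5 members rose and 1 fell (7.12% and 6.44% of all genes), with a median of 0.028, and by UMI total 10 rose and 0 fell. Mrps11 had 55.68, 82.59 and 107.7 CPM in Fgf plus and 38.66, 69.84 and 111.3 CPM in Fgf minus wells, a change of 0.19 ± 0.06 (adjusted p = 0.025). At the undirected start 22 of 76 members rose and 1 fell (6.85% and 6.42% of all genes), with 68 of 76 changes above 0 and a median of 0.136, and scaling by UMI total gave 40 up and 0 down. Mrps34 had 49.07, 99.07 and 151.2 CPM in Fgf plus and 35.68, 83.76 and 109.5 CPM in Fgf minus wells of that start (change 0.37 ± 0.07, adjusted p = 5.03e-05), with an exon overlap with Nme3 on the same strand. Mrpl34, whose exons overlap no other gene of the annotation used, had 170.2, 235.4 and 325.2 CPM in Fgf plus and 124.1, 195.4 and 278.3 CPM in Fgf minus wells (change 0.29 ± 0.05, adjusted p = 1.89e-05). The arms overlapped for these genes, with higher medians in plus. Mrpl14 was the member that fell (-0.21 ± 0.06, adjusted p = 0.00721).

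In combinations that differ in Fgf alone the summed level of the family was higher in plus in 11 of 16 at the mesendoderm start (median 3.14%) and in 14 of 15 at the undirected start (median 8.66%). Cytosolic ribosomal protein genes at the undirected start fell in 62 of 78 and rose in 1, and 8 of 17 import genes rose. The difference of the Fgf change between starts had a median of -0.100 over the members, against -0.004 for all genes tested, and 7 of 76 values were above 0. For that difference edgeR called 0 members, 16 passed an unadjusted p under 0.05, DESeq2 called 0, and 0.933% and 0.535% of all genes were called higher and lower. A difference between starts was therefore not resolved for any single member.

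**Figure D4:**
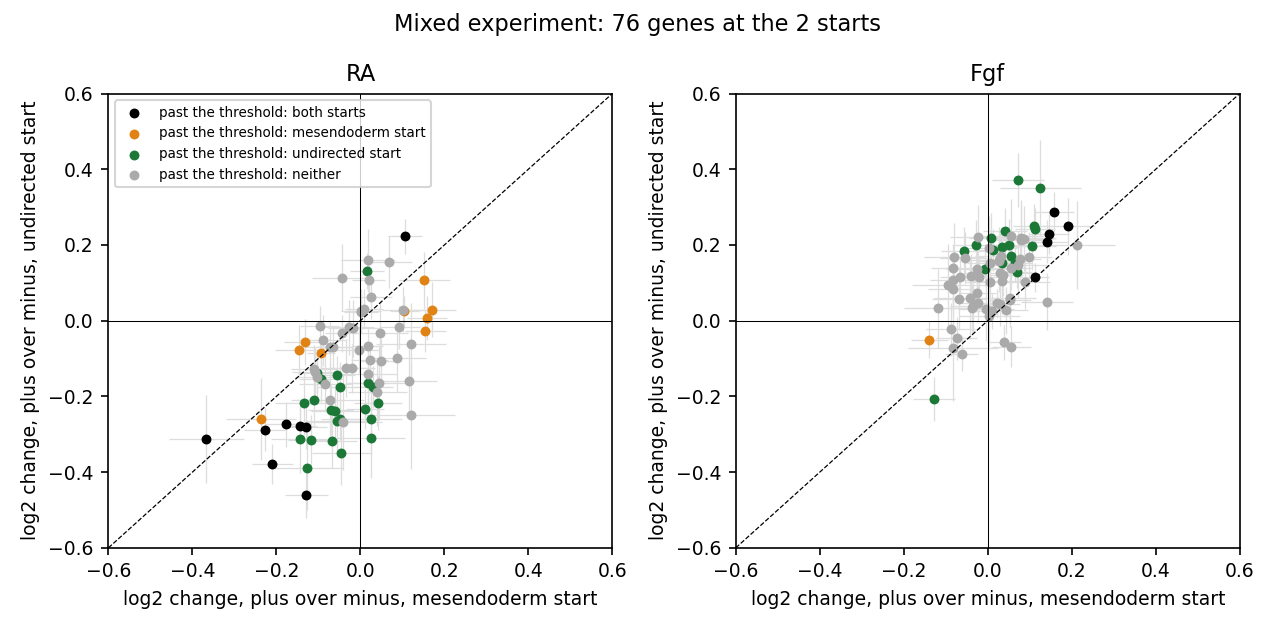
Change of each of 76 members with RA (left) and Fgf (right) in the mixed experiment, on the log2 scale, at the mesendoderm start (horizontal) and the undirected start (vertical); bars are standard errors, colours mark where the change passed an adjusted p of 0.05, and the dashed line is equal change. For RA most points lie below the line, with a median of -0.038 at the mesendoderm start and -0.138 at the undirected start, and for Fgf most lie above it, with medians of 0.028 mesendoderm and 0.136 undirected.

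With Wnt the shares of members called were near those of all genes at both starts, and the balance depended on scaling. At the mesendoderm start 15 members rose and 16 fell (19.9% and 21.2% of all genes), and at the undirected start 10 rose and 14 fell (16.7% and 19.4%). By UMI total 1 rose and 32 fell at the mesendoderm start and 4 rose and 24 fell at the undirected start, where the median of all genes tested itself shifted to -0.147 (mesendoderm) and -0.159 (undirected). Mrpl18 had 185.4, 290.7 and 364.3 CPM in Wnt plus and 214.7, 377.1 and 510.6 CPM in Wnt minus wells of the mesendoderm start (-0.41 ± 0.05, adjusted p = 4.99e-13). At the undirected start it had 145.1, 309.3 and 561.8 CPM in Wnt plus and 325.6, 448 and 663.4 CPM in Wnt minus wells (-0.53 ± 0.05, adjusted p = 3.16e-16), the largest called change of a member in the 22 pathway comparisons. Mrps30 rose at both starts. It had 41.76, 61.75 and 88.55 CPM in Wnt plus and 36.78, 48.58 and 72.71 CPM in Wnt minus wells of the mesendoderm start (0.37 ± 0.06, adjusted p = 7.7e-08), and 30.99, 71.04 and 108.7 CPM in Wnt plus and 29.23, 51.25 and 87.87 CPM in Wnt minus wells of the undirected start (0.43 ± 0.08, adjusted p = 5.99e-07).

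The Wnt change of 3 members differed between starts. For Mrps36 the mesendoderm change less the undirected one was 0.28 ± 0.06 (adjusted p = 0.000822): it had 153.9, 212.7 and 268.1 CPM in Wnt plus and 149, 186.3 and 229.4 CPM in Wnt minus wells of the mesendoderm start, and 108, 197.2 and 248.8 CPM in Wnt plus and 166.2, 212 and 266.6 CPM in Wnt minus wells of the undirected start. Its change passed the test in opposite directions, 0.16 ± 0.04 (mesendoderm) and -0.12 ± 0.05 (undirected). Mrpl11, the counterpart of a bacterial stalk-base protein, differed by 0.23 ± 0.08 (adjusted p = 0.049) and Mrps18b by -0.26 ± 0.09 (adjusted p = 0.0422). Over all genes 4.14% had a higher and 3.63% a lower Wnt change at the mesendoderm start. With the UMI total as scale 1 of the members was called higher and 0 lower.

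In the mixed experiment the members called for Bmp were all lower in plus. At the mesendoderm start 6 fell and 0 rose (5.36% of all genes each way) and at the undirected start 7 fell and 0 rose (3.49% fell and 4.32% rose), with 12 and 0 by UMI total. Mrpl42 had 288.4, 361.4 and 448.7 CPM in Bmp plus and 251.9, 430.1 and 566.3 CPM in Bmp minus wells at the mesendoderm start (-0.21 ± 0.04, adjusted p = 0.000145). Mrpl18 had 221, 355.7 and 602.9 CPM in Bmp plus and 145.1, 386.1 and 663.4 CPM in Bmp minus wells at the undirected start (-0.21 ± 0.05, adjusted p = 0.00335). The arms of both genes overlapped. The summed level was lower in plus in 13 of 16 combinations at the mesendoderm start (median -5.01%) and in 12 of 15 at the undirected start (median -3.05%). For the difference between starts edgeR called 0 members, 2 passed an unadjusted p under 0.05 and DESeq2 called 0 (0.0455% and 0.148% of all genes). Tgfb raised Mrps24 at the mesendoderm start (0.14 ± 0.04, adjusted p = 0.0397; 4.55% of all genes rose, 2.41% fell) and Mrpl15, Mrps24 and Mrpl52 at the undirected start (0.26 ± 0.06, 0.19 ± 0.05 and 0.14 ± 0.04; 2.45% rose, 1.69% fell). Exons of Mrps24 overlap Urgcp on the same strand. Between starts edgeR called 0 of all genes tested for Tgfb (0% each way), 3 members passed an unadjusted p under 0.05 and DESeq2 called 0 members.

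**Figure D5:**
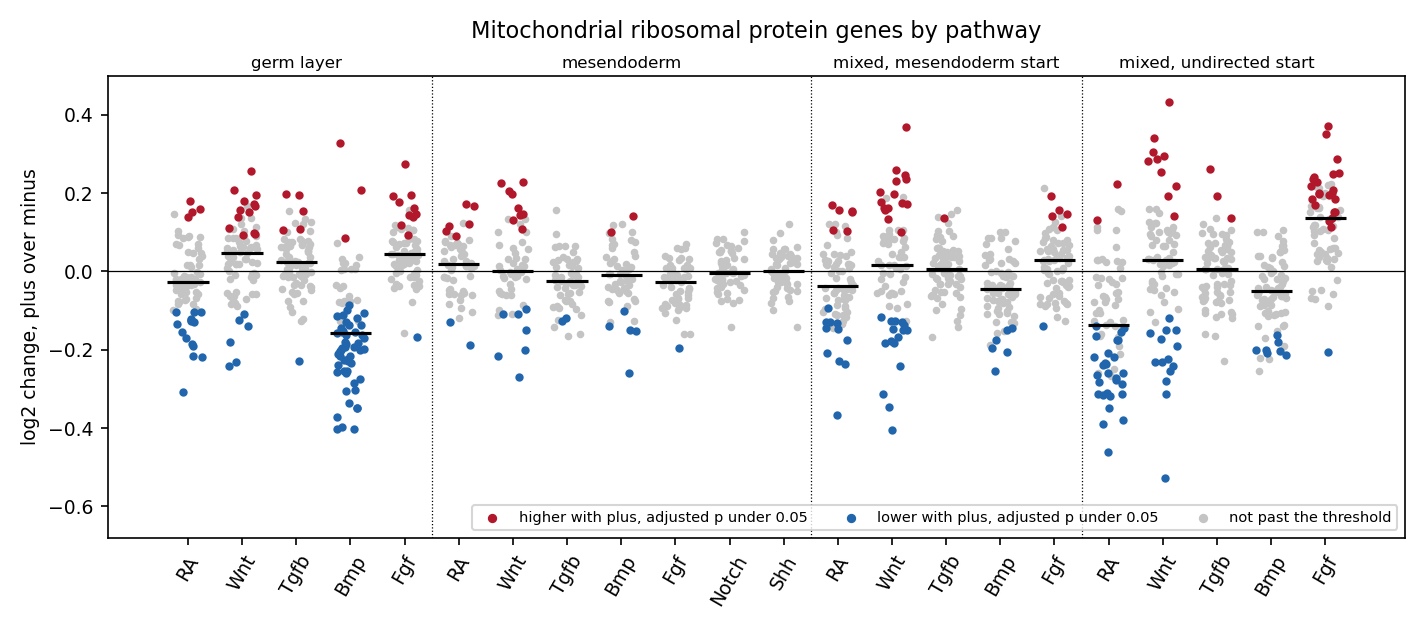
Change with plus over minus, on the log2 scale, of every member tested (dots) in the 22 pathway comparisons of the 3 experiments; red and blue mark adjusted p under 0.05, and bars are medians over the members. The germ layer Bmp median (-0.157), the undirected RA median (-0.138) and the undirected Fgf median (0.136) stand farthest from 0.

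Levels also differed between the starts. In treated wells 19 members were lower and 1 higher at the mesendoderm start than at the undirected start (11.4% and 14.2% of all genes), 20 calls that became 9 (6 lower, 3 higher) without the filter on low counts, and the summed level was lower in 27 of 31 shared combinations, by a median of 6.9%. In control wells, which had no pathway combination, 4 of 76 members were lower and 1 higher (4.27% and 4.3% of all genes). The share of members lower there was near that of all genes, so the control-well values describe single members. Mrps24 had 338.3, 381.9 and 397.4 CPM in mesendoderm and 459.6, 491.6 and 541.5 CPM in undirected control wells, with 8 wells each (-0.40 ± 0.08, adjusted p = 0.000305 from edgeR). Mrpl34 had 184.7, 211.7 and 233.3 CPM in mesendoderm and 238.4, 252.7 and 320.1 CPM in undirected control wells, and Mrpl18 367.5, 420.9 and 457.9 CPM in mesendoderm and 481.5, 509.7 and 597.5 CPM in undirected control wells. No mesendoderm well reached the lowest undirected well for these 3 genes, as for 1.26% of all genes tested, and the reverse held for 1.14% of all genes and 0 members. Mrpl42 fell as well (-0.29 ± 0.08), and Mrps31 was higher (0.55 ± 0.17, adjusted p = 0.0193). The markers listed for surface ectoderm summed to 143.4, 286.7 and 374.3 CPM without TMM factors in mesendoderm control wells. In undirected control wells they summed to 71.99, 105.9 and 160.4. Over all mixed populations the keratin genes Krt8 and Krt18 of that list averaged 127.6 and 124.5 CPM, against 11.98 for Gata3 and 3.587 for Tfap2a. The part of these markers in the differences between starts was not tested.

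More members were called lower than higher in treated wells than in control wells of their own start. At the mesendoderm start 11 members were lower and 1 higher in treated wells (8.5% and 7% of all genes, median -0.076), and at the undirected start 14 were lower and 3 higher (11% and 8.3%, median -0.081), which became 21 and 1 with the UMI total as scale. Mrpl18 had 145.1, 369.8 and 663.4 CPM in treated and 481.5, 509.7 and 597.5 CPM in control wells of the undirected start (-0.46 ± 0.07, adjusted p = 2.4e-08), and Mrpl15 104.9, 159.7 and 229.5 CPM in treated and 172.8, 207.5 and 233.1 CPM in control wells of the mesendoderm start (-0.32 ± 0.07, adjusted p = 0.000208). The highest treated well lay above the highest control well for Mrpl18 and below it for Mrpl15. Pluripotency markers summed to 957.4, 2366 and 4407 CPM without TMM factors in treated and 2368, 3021 and 3291 in control wells of the undirected start.

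Some members kept a call across experiments, which were separate libraries. The same overlaps were not counted over all genes, so the shares below have no all-gene share to be read against. In the germ layer experiment and at both mixed starts, RA lowered Mrpl12, Mrpl18, Mrpl20 and Mrpl42, Wnt raised Mrpl4, Mrpl30, Mrps9 and Mrps30 and lowered Mrpl18, Mrpl51, Mrpl55 and Mrps10, Tgfb raised Mrps24, and Bmp lowered Mrpl15, Mrpl18, Mrpl42 and Mrps18b. Adding the mesendoderm experiment left Mrps30 up and Mrpl18 and Mrpl51 down with Wnt, and Mrpl42 down with Bmp. Of the 15 members that fell with RA in the germ layer experiment 4 (26.7%) also fell at the mesendoderm start of the mixed experiment, 36.4% of the 11 that fell there, and 11 (73.3%) at the undirected start, 39.3% of 28. In the mesendoderm experiment 6 of the 15 had a negative change, 1 fell and 1 rose. Of the 51 that fell with Bmp 44 had a negative change at the mesendoderm start of the mixed experiment and 5 (9.8%) fell there, 83.3% of the 6 that did. A negative change at the undirected start was found for 40, and 5 (9.8%) fell, 71.4% of 7. In the mesendoderm experiment 33 of the 51 were tested, 20 had a negative change, 2 fell and 1 rose. Of all members tested, called or not, a Bmp change above 0 was found for 18 of 76 at the mesendoderm start. It was found for 22 of 76 at the undirected start and for 25 of 56 in the mesendoderm experiment. Negative Bmp changes were thus common in the whole family at both mixed starts, and their counts do not single out the 51.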

How the data were processed

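Cells were sequenced as pooled libraries of 10x single-cell RNA, and the deposited matrices hold the authors' raw UMI counts per gene and cell. Per the submitters' processing notes the genome build was mm10 and the tools named were HTSeq 0.9.1, STAR 2.5.2b and Cell Ranger 1.3.1; no source used here ties a tool to a step or says if strand was used in counting. Doublet removal beyond the deposited assignment filter is not described, and no doublet caller was run.

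UMI counts were summed over the cells of each assignment marked as passing in the deposited tag table, and sums of at least 5 cells were kept. The count test was edgeR 4.0.16 (quasi-likelihood, limma 3.58.1, R 4.3.3) with TMM scaling, filterByExpr, Benjamini-Hochberg adjustment over all genes tested and a threshold of 0.05, two-sided. Germ layer and mesendoderm models held every pathway additively, coded 0.5 for plus and -0.5 for minus, so a change is plus over minus averaged over the other pathways. The mixed model held the pathways within each start, with control wells coded 0. The fit was tested on simulated data with 200 changed genes. Alternatives were DESeq2 1.42.0, no filter on low counts, scaling by UMI total, at least 10 cells, mean UMIs per cell as a covariate, pairwise products of pathways, and the well number as a block.

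Members were named, per comparison, if called with a mean of at least 10 CPM, up to 8 per direction by size of change, together with the 3 most and 3 least abundant, the Mrps18 paralogues, the opposite-direction member with the smallest adjusted p, and members called for 1 pathway in all experiments; up to 3 called genes were named from each other list and up to 4 from each pair of pathways. The members and the gene lists were chosen with earlier results of these data known. Bulk samples and the barcodelet matrices were not used here.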

Additional observations from a re-analysis of the deposited data

Results flagged for a closer look

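The change with a pathway differed between the starts of the mixed experiment for 5 members, by a test of the difference itself (edgeR, Benjamini-Hochberg over all genes, the mesendoderm change less the undirected change on the log2 scale). Members called higher and lower were 2 and 0 of 76 for RA, beside 2.45% and 3.23% of all genes. They were 2 and 1 of 76 for Wnt, beside 4.14% and 3.63%. The counts were near or below the all-gene shares, so the values describe single members. For RA the difference was 0.33 ± 0.08 for Mrpl15 (adjusted p = 0.00273), from changes of -0.13 ± 0.05 at the mesendoderm start and -0.46 ± 0.06 at the undirected start. For Mrpl34 it was 0.24 ± 0.07 (adjusted p = 0.0205), from 0.01 ± 0.05 mesendoderm and -0.23 ± 0.05 undirected.

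For Wnt the difference was 0.28 ± 0.06 for Mrps36 (adjusted p = 0.000822), from 0.16 ± 0.04 mesendoderm and -0.12 ± 0.05 undirected. It was 0.23 ± 0.08 for Mrpl11 (adjusted p = 0.049), from 0.08 ± 0.05 mesendoderm and -0.15 ± 0.06 undirected, and -0.26 ± 0.09 for Mrps18b (adjusted p = 0.0422), from -0.18 ± 0.06 mesendoderm and 0.08 ± 0.07 undirected. The differences of Mrpl15 and Mrps36 passed the threshold under each of the 6 alternatives run for them, with adjusted p of 0.00115 to 0.0363 for Mrpl15 and 0.000602 to 0.00309 for Mrps36. The other 3 kept their direction but not always their call. Mrpl34 did not pass with the UMI total as scale (0.21, adjusted p = 0.0634) or with pairwise products (0.23, adjusted p = 0.0721). Mrpl11 did not pass with the UMI total (0.23, adjusted p = 0.0642), UMIs per cell as a covariate (0.23, adjusted p = 0.0604) or pairwise products (0.23, adjusted p = 0.0665). Mrps18b did not pass with the UMI total (-0.26, adjusted p = 0.0569), without the filter on low counts (-0.22, adjusted p = 0.19), with at least 10 cells (-0.26, adjusted p = 0.0599) or with UMIs per cell as a covariate (-0.24, adjusted p = 0.0761). In 36 sets of values, each of 1 gene or the summed level over the 8 control wells of a start, 0 wells lay far enough from the others to be set apart.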

How the results depend on the processing

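Over 41 counts of called members, 207 of 233 values under the alternatives stayed within 1.5 times the reported count and 26 did not. The cause was not tested. Each count adds members that rose to members that fell. It therefore does not show a shift of balance between them, such as those given above for Wnt with the UMI total as scale. Without the filter on low counts, which tests more genes, the counts were 4 (mesendoderm RA, reported 8), 0 (mesendoderm Tgfb, reported 2), 8 (mixed RA at the mesendoderm start, reported 17) and 9 (start in treated wells, reported 20). With at least 10 cells, which leaves fewer populations, they were 1 (mesendoderm RA), 6 (mesendoderm Wnt, reported 16), 0 (mesendoderm Tgfb), 3 (mesendoderm Bmp, reported 7) and 2 (mixed Tgfb at the mesendoderm start, reported 1). With mean UMIs per cell as a covariate they were 10 (germ layer RA, reported 19), 6 (germ layer Fgf, reported 11), 2 (mesendoderm Fgf, reported 1), 0 (mixed Tgfb at the mesendoderm start) and 1 (difference between starts for Wnt, reported 3). With pairwise products they were 17 (germ layer Fgf), 4 (mesendoderm RA), 2 (mesendoderm Fgf) and 1 (difference between starts for RA, reported 2). With the UMI total as scale they were 7 (germ layer RA by Wnt, reported 4), 10 (mixed Fgf at the mesendoderm start, reported 6), 12 (mixed Bmp at the undirected start, reported 7), 40 (mixed Fgf at the undirected start, reported 23), 1 (difference between starts for RA) and 1 (for Wnt). DESeq2 gave 4 for mixed Tgfb at the mesendoderm start.

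With the well number as a replicate block the mesendoderm Tgfb count was 0, and the counts of the other mesendoderm pathways stayed within 1.5 times. Nothing in the labels says that equal well numbers share a day or batch, and 1 of 2328 genes, and 0 members, differed between well numbers. A block by well number was not possible for the other experiments because their design tables number no wells. Of 232 called changes of named members 0 reversed, and 134 passed in every setting run for them. These changes were chosen for being called in the main fit. Each setting refitted the same counts or a part of them, so the lack of reversals is no independent support. In the mesendoderm experiment 56 of 77 members passed the filter on low counts, and the parts of depth and population size in this were not tested.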
